A study of Mus musculus with 4 samples.

Results

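The tetraspanin family was examined in the sub-lines 4T1-S and 4T1-A of the mouse mammary tumour line 4T1. Members were chosen by the gene name printed on the array: names starting with Tspan and a number, and Cd9, Cd37, Cd53, Cd63, Cd81, Cd82, Cd151, Upk1a, Upk1b and Prph2. This gave 29 genes and 42 probes, of 27670 gene names and 41174 probes on the array. The family was put forward with its 4T1-S against 4T1-A signals known, and the rule names that comparison. Its differences are therefore a description, and no test was made over the family as a whole. No probe carried the name Prph2.

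Total RNA of each sub-line was labelled with Cy3 and hybridised to 2 Agilent 1-colour arrays, which makes 4 arrays of 43379 spots. The series title describes 4T1-S as a strongly immunogenic sub-line, and the labels give 4T1 as the parent of both. They state no treatment, and leave unsaid whether replicate arrays stem from separate cultures and whether a sub-line is 1 clone. The p-values thus reflect spread between arrays alone, possibly technical. The arrays share 1 slide per the file headers, with 4T1-S at positions 3 and 4 and 4T1-A at positions 1 and 2, so slide position and sub-line cannot be told apart.

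Tetraspanins are small proteins that cross the membrane several times and carry a large outer loop with a conserved cysteine motif. They assemble with integrins, immunoglobulin-domain proteins, proteases and one another into membrane microdomains that organise adhesion, receptor traffic and the release of vesicles. In carcinoma cells some members, such as Cd82, are known for restraining spread, and others, such as Cd151 and Tspan8, for favouring it.

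In 4T1-S, 5 tetraspanin genes fell, and they were Tspan7, Tspan13, Tspan2, Tspan1 and Tspan12. Here fell and rose mean lower and higher in 4T1-S than in 4T1-A. The parent 4T1 was not among the arrays, so the sub-line that changed cannot be told. Of 22 members with a testable signal, 0 rose and 17 did not pass. A gene was testable where its brightest probe cleared background (the scanner software's flag) in both replicates of 1 or both sub-lines, and it passed at an adjusted p under 0.05 in limma's fit over 16161 genes. Tspan7, Tspan1 and Tspan13 met this filter through 4T1-A alone, the sub-line where they were higher. Where a probe had to clear background on all 4 arrays, 2 tetraspanin genes were lower, Tspan2 and Tspan12. Over all 16161 genes 7.01 percent passed, 4.00 percent higher and 3.01 percent lower in 4T1-S. An unadjusted p under 0.05 was reached by 10 members, the 5 that fell and Cd37, Cd81, Tspan3, Tspan6 and Tspan17, and by 28.7 percent of all genes tested. Of these, Cd37, Cd81, Tspan6 and Tspan17 had the higher signal in 4T1-S, 4 of 22 members, where 20.5 percent of all genes reached that p in that direction. The rule used this comparison, so nothing is read from the members' share of 22.7 percent. The median difference of the tested members was 0.05 on the log2 scale, against 0.14 over all genes tested.

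The starts of the 5 genes that fell are shown. These members were picked for their shared direction, and whether they vary together was not tested. Each window runs from 250 bases before to 50 bases after a transcript start, from RefSeq on GRCm38.p6, 5′ to 3′ on the gene's strand. Capitals mark 4 motifs searched on both strands: the E-box CACCTG bound by factors such as Zeb1, the GC box GGGCGG, the TATA motif TATAAA and the AP-1 motif TGANTCA. For Tspan2 the first of its listed starts is shown.
Tspan7, chrX:10484866-10485165, plus strand: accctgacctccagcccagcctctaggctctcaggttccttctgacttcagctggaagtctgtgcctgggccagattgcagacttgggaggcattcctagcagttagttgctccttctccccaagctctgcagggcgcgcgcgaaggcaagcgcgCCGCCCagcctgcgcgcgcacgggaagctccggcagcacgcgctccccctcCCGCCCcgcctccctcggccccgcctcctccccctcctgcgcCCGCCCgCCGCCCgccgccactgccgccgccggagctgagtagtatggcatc
Tspan13, chr12:36042429-36042728, minus strand: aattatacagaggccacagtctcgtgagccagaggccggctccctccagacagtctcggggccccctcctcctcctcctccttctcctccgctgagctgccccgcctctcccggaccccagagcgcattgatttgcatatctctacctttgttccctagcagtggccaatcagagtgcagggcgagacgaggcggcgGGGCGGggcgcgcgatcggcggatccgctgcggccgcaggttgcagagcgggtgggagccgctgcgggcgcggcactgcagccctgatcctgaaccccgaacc
Tspan2, chr3:102734520-102734819, plus strand: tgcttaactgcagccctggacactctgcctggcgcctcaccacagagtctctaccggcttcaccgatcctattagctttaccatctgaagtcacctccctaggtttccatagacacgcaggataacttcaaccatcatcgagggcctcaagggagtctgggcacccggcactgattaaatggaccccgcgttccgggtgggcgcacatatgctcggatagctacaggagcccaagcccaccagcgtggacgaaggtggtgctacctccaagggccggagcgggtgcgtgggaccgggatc
Tspan1, chr4:116167549-116167848, minus strand: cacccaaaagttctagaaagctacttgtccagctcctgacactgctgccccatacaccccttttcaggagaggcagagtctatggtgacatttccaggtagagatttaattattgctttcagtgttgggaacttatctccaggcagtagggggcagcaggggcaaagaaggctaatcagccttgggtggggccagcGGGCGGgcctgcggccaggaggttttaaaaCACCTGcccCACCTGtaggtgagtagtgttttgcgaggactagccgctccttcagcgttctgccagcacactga
Tspan12, chr6:21852484-21852783, minus strand: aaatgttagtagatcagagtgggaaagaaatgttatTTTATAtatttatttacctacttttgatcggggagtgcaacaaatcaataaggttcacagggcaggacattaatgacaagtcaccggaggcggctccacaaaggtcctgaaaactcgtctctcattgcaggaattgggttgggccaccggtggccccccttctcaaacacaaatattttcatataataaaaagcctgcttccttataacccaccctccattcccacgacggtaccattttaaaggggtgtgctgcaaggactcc

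The windows share no searched motif. The Tspan7 window held 4 GC boxes, the Tspan13 and Tspan1 windows 1 each, and the Tspan2 and Tspan12 windows 0. The Tspan1 window alone held E-boxes, 2 of them, and the Tspan12 window alone held a TATA motif. No window of the 5 genes held the AP-1 motif. Of 32851 windows of this length over the genome, 20.2 percent held the E-box, 35.7 percent the GC box, 13.6 percent the TATA motif and 7.81 percent the AP-1 motif, and no marked motifs overlapped in the windows shown. A match is a description of letters and not a bound site.

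CpG content also varied among the fallen genes. Their 6 windows, both starts of Tspan2 included, held between 6 and 27 CpG with a median of 18. The 26 windows of the tested members that did not pass held between 3 and 43 with a median of 13, and the 5 windows of members without a testable signal between 0 and 5. The median over all windows was 7. In all, 27 of the 29 members matched the RefSeq table.

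Tspan7, an X-linked tetraspanin known from synapses of neurons, had signals of 0.0133 and 0.0127 times the array's 75th percentile in 4T1-S, against 0.389 and 0.445 in 4T1-A. On the 4T1-S arrays both values are ones the scanner software puts in place of low signals, not well above background, and the probe was well above background on both 4T1-A arrays. The fold is therefore a bound, and Tspan7 fell at least 7.27-fold in 4T1-S. For such a bound, the dim signal on each array was raised, where lower, to the weakest signal flagged as well above background there, and the group means were then compared. The measured log2 difference was -5.0 ± 0.19 (SE, n = 2 arrays each, adjusted p = 1.14e-05, limma). Its p and SE take in the substituted values, and the bound itself was not tested. With another background correction, normexp, the difference was -1.63 (adjusted p = 0.00348, limma).

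Tspan13, whose protein associates with voltage-gated calcium channels, had signals of 0.0749 and 0.0567 in 4T1-S, against 0.956 and 0.828 in 4T1-A. All values of this kind are multiples of the array's 75th percentile. Of the 2 4T1-S arrays, 1 was well above background. Tspan13 fell by 3.77 ± 0.21 on the log2 scale, 13.7-fold (adjusted p = 5.84e-05, limma). With normexp it fell by 2.20.

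Tspan2, known from myelin-forming oligodendrocytes, had signals of 0.513 and 0.362 in 4T1-S, against 5.22 and 2.64 in 4T1-A. Every array was well above background, and the 4T1-A arrays themselves differed 1.98-fold. Tspan2 fell by 3.11 ± 0.33, 8.61-fold (adjusted p = 0.00162, limma). Its other probe had 0.278 and 0.215 in 4T1-S, against 2.46 and 1.84 in 4T1-A, and gave nearly the same difference, -3.12 ± 0.24. The call was lost with no filter on background (adjusted p = 0.0556).

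Tspan1, a tetraspanin of epithelia, had signals of 0.0577 and 0.0422 in 4T1-S, against 0.190 and 0.538 in 4T1-A. Neither 4T1-S array was well above background, and the 4T1-A arrays lay 2.83-fold apart, the widest replicate gap of any tested member. Tspan1 fell at least 5.58-fold in 4T1-S (measured log2 difference -2.70 ± 0.44, adjusted p = 0.0121, limma). Its other probe had 0.0577 and 0.0517 in 4T1-S, against 0.133 and 0.419 in 4T1-A, and was at least 4.13-fold lower. That probe passed only narrowly in the fit over probes (adjusted p = 0.0499, limma). The Tspan1 call is the least settled of the calls. It was lost with normexp (-1.04, adjusted p = 0.113) and with every probe kept regardless of background (0.106). Leaving out 4T1-S replicate 1 gave an adjusted p of 0.0725, and leaving out 4T1-S replicate 2 gave 0.119. The difference was -3.45 without 4T1-A replicate 1 and -1.95 without 4T1-A replicate 2.

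Tspan12, which strengthens Norrin signalling through the receptor Fzd4, had signals of 0.994 and 0.977 in 4T1-S, against 3.55 and 2.98 in 4T1-A. All arrays were well above background. Tspan12 fell by 1.72 ± 0.19, 3.30-fold (adjusted p = 0.00191, limma), with a 95% interval of -2.17 to -1.28. It passed under all 13 alternatives run. Its partner Fzd4 had 1.95 and 3.67 in 4T1-S, against 0.995 and 2.35 in 4T1-A, overlapping values that gave 0.81 ± 0.43 and did not pass (adjusted p = 0.259). The co-receptor Lrp5 differed by -0.46 ± 0.19 (adjusted p = 0.157).

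**Figure D1:**
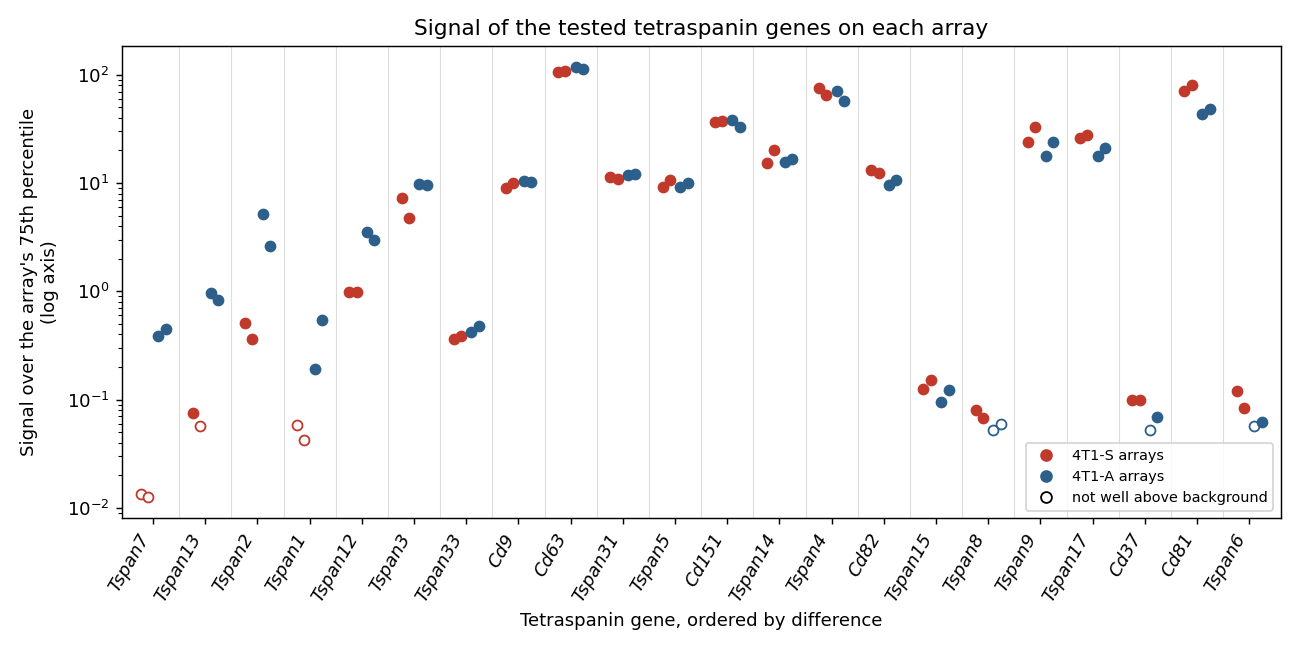
Signal over the array's 75th percentile (log axis) of the 22 tested tetraspanin genes, by their brightest probe, with 1 point per array. For Tspan7, Tspan13, Tspan2, Tspan1 and Tspan12 both 4T1-S points lie below both 4T1-A points. The same order holds for Cd9, Cd63, Tspan3, Tspan31 and Tspan33, which did not pass. How often it occurs over all genes was not counted. Open points mark signals not well above background, as for Tspan7 at 0.0133 and 0.0127 in 4T1-S.

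The tetraspanins best known from the surface and vesicles of carcinoma cells did not pass. Cd81, a tetraspanin found on most cells, came nearest, with signals of 71.0 and 80.5 in 4T1-S, against 43.0 and 47.9 in 4T1-A. Both 4T1-S arrays lay above both 4T1-A arrays. The difference was 0.74 ± 0.19, 1.67-fold (adjusted p = 0.0586, limma). Cd81 has 1 probe, so taking the mean of a gene's probes leaves that difference unchanged. It passed with an intensity trend and robust fitting (adjusted p = 0.0217), with the mean of a gene's probes (0.0486) and without 4T1-A replicate 2 (0.0463). Adjusted p reached 0.260 in other alternatives, without 4T1-A replicate 1.

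Cd63, a protein of late endosomes and of exosomes, had signals of 105 and 109 in 4T1-S, against 117 and 113 in 4T1-A. The difference was -0.11 ± 0.18, with a 95% interval of -0.53 to 0.32, which spans 0. Cd151, the partner of laminin-binding integrins, had 36.3 and 37.4 in 4T1-S, against 38.5 and 32.7 in 4T1-A, with overlapping groups. It differed by 0.05 ± 0.19 (95% interval -0.39 to 0.49). Cd82, known in human tumours as a suppressor of metastasis, had 13.1 and 12.3 in 4T1-S, against 9.50 and 10.7 in 4T1-A. Its 4T1-S arrays were both the higher, but the difference of 0.33 ± 0.19 did not pass (adjusted p = 0.281).

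Cd9, needed on the egg for fusion with sperm and present on many epithelia, gave different sizes by probe. The probe for the RefSeq transcript had 8.95 and 10.1 in 4T1-S, against 10.5 and 10.3 in 4T1-A, a difference of -0.14 ± 0.19 (adjusted p = 0.669). A probe designed to another transcript record, AK038228, had 0.288 and 0.121 in 4T1-S, against 0.571 and 0.360 in 4T1-A, a difference of -1.29 ± 0.41. That probe did not pass in the fit over probes (adjusted p = 0.115), and the third Cd9 probe was not above background on any array. Tspan4, a tetraspanin of the trails that migrating cells leave behind, differed by 0.13 ± 0.21. Tspan8, linked to motility and spread in human carcinomas, was above background on both 4T1-S arrays and on neither 4T1-A array, at 0.0799 and 0.0681 in 4T1-S and 0.0524 and 0.0589 in 4T1-A, and did not pass (adjusted p = 0.210). Of the 7 members listed as integrin-binding, 0 rose, 0 fell and 7 did not pass, where 7.01 percent of all genes passed. The median of the 7 was 0.13, against 0.14 over all genes.

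**Figure D2:**
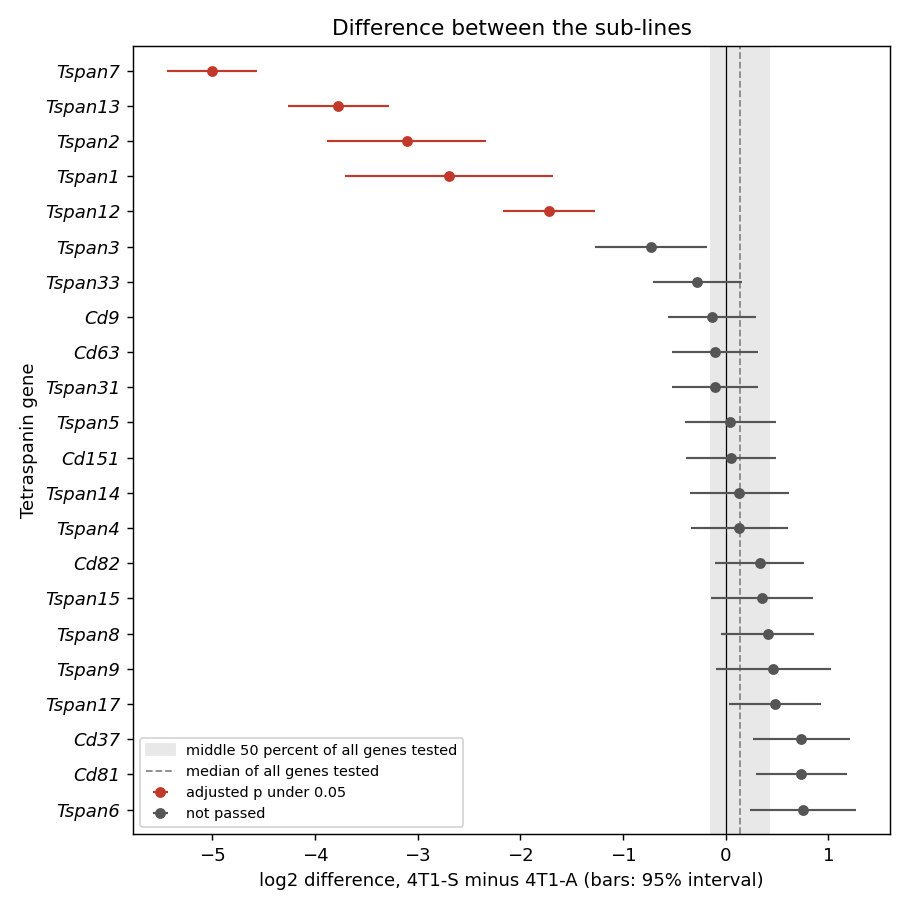
Log2 difference of 4T1-S minus 4T1-A for the 22 tested tetraspanin genes, with the 95% interval of limma's fit. The 5 genes at the top lie between -5.0 and -1.72, and the other 17 lie between -0.73 and 0.75. The grey band holds the middle 50 percent of all genes tested, -0.15 to 0.43.

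The TspanC8 members escort the protease Adam10, which sheds surface proteins such as Notch receptors and cadherins, out of the endoplasmic reticulum. Of 6 listed, 5 had a testable signal, and 0 rose, 0 fell and 5 did not pass, where 7.01 percent of all genes passed. Their median was 0.13, against 0.14 over all genes. Tspan17 had 26.1 and 27.6 in 4T1-S, against 17.6 and 21.1 in 4T1-A, and both 4T1-S arrays were higher. Its difference was 0.48 ± 0.19 (adjusted p = 0.155, limma). Tspan15 differed by 0.35 ± 0.21, Tspan14 by 0.13 ± 0.21, Tspan5 by 0.05 ± 0.19 and Tspan33 by -0.28 ± 0.19. Tspan10 was not above background on any array. Adam10 itself had 0.264 and 0.212 in 4T1-S, against 0.391 and 0.221 in 4T1-A, and its difference of -0.31 ± 0.29 did not pass (adjusted p = 0.515).

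Of the remaining tested members, Tspan3 had 7.22 and 4.80 in 4T1-S, against 9.88 and 9.64 in 4T1-A. Both 4T1-S arrays were lower, and the 4T1-S arrays differed 1.51-fold, the widest gap of a tested member in that sub-line. The difference of -0.73 ± 0.24 did not pass (adjusted p = 0.0964, limma), and a second probe gave -0.30 ± 0.30. Tspan3 passed with scaling to the median (-1.02, adjusted p = 0.0385). Tspan9, known from platelets, differed by 0.46 ± 0.24, and Tspan31, which lies beside Cdk4 and is amplified with it in human sarcomas, by -0.10 ± 0.18. Tspan6 had 0.119 and 0.0836 in 4T1-S, against 0.0567 and 0.0617 in 4T1-A, where 1 of 2 arrays was above background. The difference of 0.75 ± 0.22 missed the threshold (adjusted p = 0.0816).

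The tetraspanins of leukocytes and urothelium lay at or near background. Cd37, a regulator of B and T cells, had 0.0999 and 0.100 in 4T1-S, against 0.0528 and 0.0684 in 4T1-A, with 1 of 2 4T1-A arrays above background. The difference of 0.74 ± 0.20 missed the threshold (adjusted p = 0.0693, limma). Cd37 and Tspan6 both passed without 4T1-A replicate 2 (adjusted p = 0.0207 and 0.0499). The 7 members with no array above background were Cd53 and Tspan32 of leukocytes, Upk1a and Upk1b of the urothelial plaque, Tspan10, Tspan11 and Tspan18. Upk1b had 0.0122 and 0.0118 in 4T1-S, against 0.0111 and 0.0106 in 4T1-A, all of them substituted low values. Tspan32 read 0.0587 and 0.0318 in 4T1-S, against 0.0189 and 0.0135 in 4T1-A, and no fold is given since no array was above background. A probe named Rds, outside the rule, carries the accession of Prph2, a structural protein of photoreceptor discs. It had 0.0873 and 0.0676 in 4T1-S, against 0.0524 and 0.0550 in 4T1-A, and did not pass (adjusted p = 0.177 over probes).

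Counting probes instead of genes, 26 of the 42 probes had a testable signal, and 7 were lower, 0 higher and 19 not passed. Over all 23669 probes tested, 4.58 percent passed. The 7 were both probes of Tspan1, both of Tspan2 and the single probes of Tspan7, Tspan12 and Tspan13. In 4 genes more than 1 probe was testable, and in those 4 genes both probes had the same sign. For Cd9 and Tspan3 neither probe passed. Replicate arrays of the 22 tested members differed by a median of 1.14-fold in 4T1-S and 1.14-fold in 4T1-A, against 1.16-fold and 1.16-fold over all genes tested.

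Genes that work with tetraspanins or resemble them were read beside the family. Of 63 tested, 3 rose, 4 fell and 56 did not pass, so that 11.1 percent passed, against 7.01 percent of all genes. Their median was -0.04, against 0.14 over all genes. Among 25 tested partners at the surface, 2 rose and 3 fell. Itgb3, a chain of the vitronectin receptor, had 2.92 and 2.32 in 4T1-S, against 0.956 and 1.01 in 4T1-A, and rose by 1.40 ± 0.20 (adjusted p = 0.00678, limma). Icam1, an adhesion ligand of leukocyte integrins, had 1.09 and 1.31 in 4T1-S, against 0.418 and 0.393 in 4T1-A, and rose by 1.55 ± 0.19 (adjusted p = 0.00351). Epcam, an epithelial adhesion molecule found in complexes with tetraspanins, had 0.181 and 0.177 in 4T1-S, against 2.12 and 2.86 in 4T1-A.

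Epcam fell by 3.78 ± 0.21 (adjusted p = 5.48e-05, limma). Egfr, the epidermal growth factor receptor, had 0.0546 and 0.0479 in 4T1-S, neither well above background, against 0.526 and 0.487 in 4T1-A, and was at least 8.83-fold lower. The other partner that fell was the integrin chain Itgb4, by 1.16 ± 0.20 (adjusted p = 0.0166, limma). Itgb4 had 11.7 and 14.2 in 4T1-S, against 26.5 and 31.4 in 4T1-A, and was not followed under the alternatives. The integrin chains Itga3 (-0.13 ± 0.18), Itga6 (-0.20 ± 0.19) and Itgb1 (-0.02 ± 0.18) did not pass. Nor did the immunoglobulin-domain partners Igsf8 (-0.05 ± 0.18) and Ptgfrn (-0.22 ± 0.18). The call of Itgb3 was lost with every probe kept regardless of background (adjusted p = 0.0624) and on leaving out 4T1-S replicate 1 (0.0677), and that of Icam1 without 4T1-S replicate 2 (0.0544). Egfr differed by -3.30 by its brightest probe, by -1.66 with the mean of its probes and by -1.48 with normexp.

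Of 13 tested Adam10 substrates, 0 rose, 12 did not pass and Cdh1, which encodes E-cadherin, fell by 1.11 ± 0.18 (adjusted p = 0.0130, limma). Cdh1 had 2.13 and 2.30 in 4T1-S, against 4.72 and 4.81 in 4T1-A. Over all genes tested, 3.01 percent were lower. Of 15 tested genes of exosome formation, 0 rose, 0 fell and 15 did not pass, a count to be set beside the 7.01 percent of all genes that passed. Chmp4b, a subunit of the membrane-cutting ESCRT machinery, had 46.0 and 43.4 in 4T1-S, against 38.1 and 36.2 in 4T1-A, a difference of 0.27 ± 0.18. Of 8 tested genes of other membrane families with a similar layout, Pmp22, a myelin protein, rose by 1.51 ± 0.23 (adjusted p = 0.00893) and 7 did not pass, among them Tm4sf1 at -0.15 ± 0.19. Pmp22 had 14.7 and 19.6 in 4T1-S, against 5.24 and 6.77 in 4T1-A. Over all genes tested, 4.00 percent were higher. The 4 palmitoyltransferases listed as acting on tetraspanins did not pass. Zdhhc5 had 20.9 and 29.8 in 4T1-S, against 15.1 and 22.3 in 4T1-A, overlapping values that differed by 0.44 ± 0.27. The call of Pmp22 was lost with every probe kept (adjusted p = 0.0811) and on leaving out 4T1-S replicate 2 (0.0952), and that of Cdh1 without 4T1-S replicate 1 (0.100) or 4T1-S replicate 2 (0.0935) and with no filter (0.0699).

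Markers of cell types were read beside these results. All 8 epithelial markers were well above background on all 4 arrays. Of these, 4 fell, Epcam, Cdh1, Krt14 and Krt19, where 3.01 percent of all genes tested were lower. The other 4 did not pass. Krt8 differed by -0.19, Krt18 by -0.14 and Krt7 by -0.20, and Krt5 lay in the other direction, at 0.52. The summed level of the 8 was 308 and 253 in 4T1-S, against 322 and 339 in 4T1-A. Krt8, Krt18 and Krt7, which did not pass, made up most of each sum. Krt14, a basal keratin, had 1.91 and 2.23 in 4T1-S, against 8.06 and 9.18 in 4T1-A. Krt19, a keratin of simple epithelia, had 0.709 and 1.02 in 4T1-S, against 4.13 and 6.58 in 4T1-A, and its call was lost with every probe kept (adjusted p = 0.0515). These falls had the same direction as those of the 5 tetraspanins, and their part in them was not tested. Among the leukocyte markers, the brightest was Cd68, at 0.387 and 0.313 in 4T1-S, against 0.533 and 0.605 in 4T1-A. Its log2 difference of -0.705 fell short of the threshold (limma, adjusted p = 0.0739). The median over the 7 leukocyte markers tested had the opposite sign, at 0.416, against 0.135 over all genes tested. With Cd68 as the largest part of each sum, the 11 leukocyte markers summed to 1.17 and 1.19 in 4T1-S, against 1.17 and 1.18 in 4T1-A. Their defining member Ptprc was above background on 1 of 4 arrays, and the transcription factor Spi1 rose by 0.86 ± 0.21 (adjusted p = 0.0497, limma), a call lost in 7 of 12 alternatives. Spi1 had 0.117 and 0.107 in 4T1-S, against 0.0702 and 0.0543 in 4T1-A. The 8 fibroblast markers summed to 1.43 and 1.41 in 4T1-S, against 0.731 and 0.959 in 4T1-A. Pdgfra, the largest part of each sum, had 0.78 and 0.758 in 4T1-S, against 0.324 and 0.529 in 4T1-A. It did not pass (adjusted p = 0.0736, limma). Of 4 tested fibroblast markers, 1 rose and 3 did not pass, where 4.00 percent of all genes tested were higher. The median of the 4 was 0.742, against 0.135 over all genes tested. Of the 8 listed, 2 were above background on 0 arrays. The marker that rose, Col1a1, had 0.112 and 0.149 in 4T1-S, against 0.0271 and 0.0416 in 4T1-A. Neither 4T1-A array was well above background, so the rise is a bound of at least 2.59-fold (measured log2 difference 1.95 ± 0.26). The Col1a1 difference was 0.76 with normexp, and the call was lost with every probe kept (adjusted p = 0.0742) and on leaving out 4T1-S replicate 2 (0.0701). Of the endothelial markers, 0 of 5 were testable, and the brightest, Tek, had 0.109 and 0.0657 in 4T1-S, against 0.0492 and 0.0430 in 4T1-A. Of 3 urothelial markers 1 was testable, Upk2, with 0.0853 and 0.0808 in 4T1-S, against 0.0530 and 0.0432 in 4T1-A, and it did not pass. Of 3 photoreceptor markers 1 was testable, Sag, with 0.0749 and 0.0731 in 4T1-S, against 0.130 and 0.150 in 4T1-A. Sag fell by 0.92 ± 0.19 (adjusted p = 0.0301), a call lost in 4 of 13 alternatives, among them normexp (-0.22, adjusted p = 0.237).

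**Figure D3:**
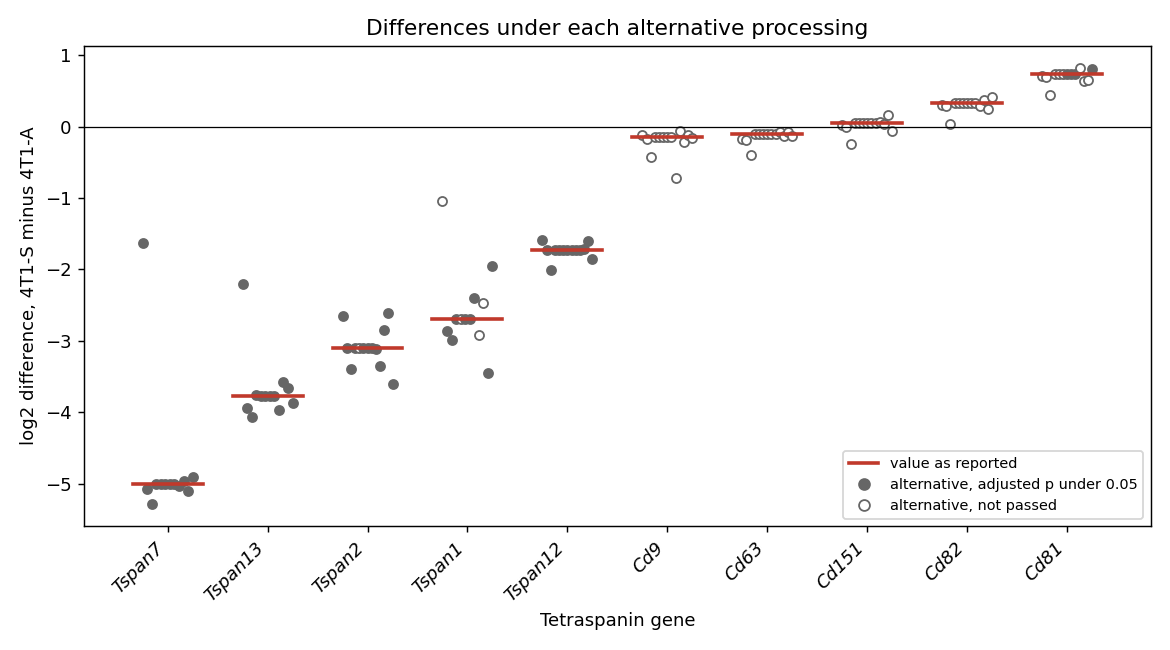
Log2 difference of 4T1-S minus 4T1-A for 10 tetraspanin genes under each alternative processing, with the reported value as a bar. Filled points passed at an adjusted p under 0.05 and open points did not. Tspan7, Tspan13 and Tspan12 passed in every alternative in which they were tested, and Cd9, Cd63, Cd82 and Cd151 in 0.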

How the data were processed

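Spots were quantified by the authors as intensity with Agilent Feature Extraction 9.1, per the file headers, and the values are background-subtracted and detrended within each array. In the deposited table of the series each value is a linear ratio of processed intensity to that array's 75th percentile, not centred by gene. This scale was found from the values, within 0.509 percent for ratios of 1 or more, and its column medians were 0.098 and 0.091 in 4T1-S and 0.078 and 0.076 in 4T1-A. Flags per spot, such as well above background, are those of the deposited files. Between 54.9 and 59.2 percent of spots were well above background. The number of arrays limits the precision.

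Processed intensity was divided by each array's 75th percentile and put on the log2 scale. Between 5 and 9 outlier spots per array were left out, and spots of a probe were averaged. Probes were named by RefSeq accession (22951), symbol (9768) or the name in the file (8455), with RefSeq genes of GRCm38.p6. A gene was represented by its brightest probe. Tests used limma 3.58.1 in R 4.3.3 (2-sided, Benjamini-Hochberg over all genes or all probes, residual degrees of freedom 2, prior 5.73). The procedure was tested on simulated data.

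Every member is accounted for. Values on all arrays were given for members that passed, members with a testable probe changed at least 2-fold, and Cd9, Cd63, Cd81, Cd82 and Cd151, and from other lists for up to 4 members that passed, or else the brightest. Values of Tspan3, Tspan6, Tspan8, Tspan32, Upk1b, Adam10, Fzd4, Lrp5, Itga3, Itga6, Itgb1, Igsf8, Ptgfrn, Itgb4, Tm4sf1 and Ptprc, and the differences of the other members, were added after values were seen. The same holds for Krt5, Krt7, Krt8, Krt18, Cd68 and Pdgfra. The members and the lists were chosen with earlier results of these data known.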

Additional observations from a re-analysis of the deposited data

How the results depend on the processing

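The 5 tetraspanin genes lower in 4T1-S numbered 3 with no filter on background and 2 where a probe had to be above background on all 4 arrays, a setting that leaves out Tspan1, Tspan7 and Tspan13 by construction. The 7 probes lower numbered 4 and 3 in these settings. They numbered 5 with normexp, and 6 with the deposited series table, with quantile normalization and with an intensity trend and robust fitting. The 0 tetraspanin genes higher became 1 with an intensity trend and robust fitting, 1 with the mean of a gene's probes and between 0 and 3 leaving out an array. The 0 probes higher became 1 with no filter and 1 with the trend. The 3 partner and related genes higher numbered 1 with no filter, 5 with the trend and between 1 and 5 leaving out an array, and the 4 lower numbered 2 with no filter and between 2 and 5 leaving out an array. The deposited series table, quantile normalization and scaling to the median kept these counts within 1.5 times.

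The labels number the arrays 1 and 2 in both sub-lines, with nothing that says the numbers mark a shared culture or day. Deviations of same-numbered arrays correlated at 0.42 across genes. With the replicate block, 3 tetraspanin genes and 3 probes were higher, and 11 partner and related genes were higher and 7 lower. Cd81 (adjusted p = 0.0183), Cd37 (0.0237) and Tspan6 (0.0328) passed as higher and Tspan3 (0.0316) as lower, and over all genes 2517 were higher and 1166 lower.

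Scaling moved the zero point. The median difference was -0.16 over all genes and -0.24 over the tested tetraspanins with scaling to the median, and -0.058 over the tetraspanins with normexp. Leaving out an array it lay between -0.057 and 0.047. The split over all genes was 646 higher and 487 lower, against 189 and 882 after median scaling. Quantile normalization gave 266 and 465, normexp 230 and 284, no filter 97 and 174, and the requirement of all 4 arrays 306 and 310. Leaving out an array gave between 96 and 1374 higher and between 210 and 1004 lower. Where an array is left out, the lone array of a sub-line is assumed to vary like the other sub-line's. The cause of each move was not tested, save where named.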
